A study of Rattus norvegicus with 6 samples.

Results

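The genes described here carry the signal that GDNF gives to the tip of the ureteric bud, together with genes known as its targets or partners. They are Ret, Gdnf, Gfra1, Etv4, Etv5, Spry1, Mycn, Sox9 and Gata3, 9 genes chosen by their place in this pathway and, in part, selected on the higher levels of Ret and Gfra1 on the arrays labelled 7 days. They stand among 26206 gene names or probe IDs with a kept probe. Every non-control probe that the array annotation gave to one of these genes was used. That gave 20 of 41012 probes, of which 19 were among the 30896 probes kept for testing. The probe left out was one of 4 for Sox9, which was well above background only in Cy5 of 1 array.

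Kidney RNA of Han:SPRD rats was measured at 3 and 7 days of age on 6 two-colour arrays. The Cy allele causes polycystic kidney disease, mild and slow in Cy/+ rats and severe and early in Cy/Cy rats. On each array a +/+, Cy/+ or Cy/Cy pool was labelled with Cy5 and a +/+ pool of the same age, the reference, with Cy3, and dyes were not swapped. All pools came from whole left kidneys, and the number of rats in a pool is not given in the sources used here. Each genotype was thus measured in 1 pool per age. The +/+ reference was hybridised 3 times per age, so its spread is technical unless the 3 were separate pools. In whole-kidney RNA, fewer cells of a type and less RNA per cell cannot be told apart.

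In the developing kidney the mesenchyme secretes GDNF, which binds the co-receptor GFRA1 and activates the receptor tyrosine kinase RET on the tip of the ureteric bud. The signal drives outgrowth and branching of the bud. It induces the ETS factors Etv4 and Etv5, and SPRY1 restrains it as a feedback inhibitor. Gata3 is a transcription factor that Ret expression in the nephric duct depends on, and Sox9 acts in the bud tip and later in repair of tubules. In the rat, new nephrons still form during the first days after birth, so tips are present in the neonatal kidney.

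The arrays labelled +/+ went against their label. Their log2 ratios of Cy5 over Cy3, which compare +/+ with +/+, had an SD over kept probes of 1.1 at 3 days and 0.94 at 7 days. The SD was 0.32 and 0.23 on the Cy/+ arrays and 0.17 and 0.16 on the Cy/Cy arrays. The summed level of 8 defining kidney tubule and podocyte markers was log2 13.9 in Cy5 of both arrays labelled +/+, against 17.6 to 17.9 in Cy5 of the 4 mutant pools. Cy3 of these arrays stood apart as well in some lists: 4 skeletal muscle markers summed to log2 14.3 and 15.3 there, against 9.20 to 10.01 in Cy3 of the mutant arrays. Comparisons with Cy5 of these 2 arrays are given apart. The reference values with age use Cy3 of all 6 arrays, and what changed without these 2 is given beside them. All arrays of an age lay on 1 slide, so age and slide cannot be told apart. Between 65.0% and 70.0% of spots in Cy3, and 66.8% to 74.8% in Cy5, were well above background. With so few arrays, their number sets the precision.

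The ages used here are those of the labels. A pair of genes with a known course after birth was read in the reference after their values had been seen. Egf, which is known to rise in the maturing kidney, was at log2 11.2, 11.3 and 11.2 on the arrays labelled 3 days and at 9.61, 9.90 and 9.92 on those labelled 7 days. Igf2, known to fall after birth, was at log2 12.3, 14.4 and 14.2 at 3 days and at 14.0, 15.3 and 15.3 at 7 days, the first of each from the array labelled +/+, and the ages overlapped. Egf thus went opposite to that course between the labelled ages, and Igf2 did so on average. Every direction with age below is a direction between these labels.

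The probes are shown first because the genes' probes differed in level and in change. Each sequence is the 60-base probe on the array, or its first 30 bases for the probe nearest the gene's 3′ end, in lower case 5′ to 3′. Capitals mark runs of at least 5 G or C bases.
Ret A_44_P308662: gatccatttaagaaaggctattaaaccgta
Ret A_44_P153972: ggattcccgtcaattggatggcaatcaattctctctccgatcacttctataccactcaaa
Ret A_44_P480153: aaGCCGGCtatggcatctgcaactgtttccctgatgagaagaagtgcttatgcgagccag
Gfra1 A_43_P11634: cagtgggaagttccatgaagactcatacat
Gfra1 A_44_P107308: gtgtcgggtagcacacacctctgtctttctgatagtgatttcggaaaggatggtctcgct
Mycn A_44_P290539: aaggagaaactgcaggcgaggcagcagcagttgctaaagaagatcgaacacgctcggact
Etv4 A_44_P511491: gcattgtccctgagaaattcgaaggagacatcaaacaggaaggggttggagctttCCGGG
Gdnf A_44_P365470: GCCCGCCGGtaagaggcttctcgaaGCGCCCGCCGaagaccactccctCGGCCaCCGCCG
Gdnf A_44_P500961: tacgacaaaatactaaaaaatctgtctcga
By the array annotation in build rn3, the Ret probe A_44_P308662 lies at chr4:154693062-154693121, A_44_P153972 at chr4:154704854-154704913 and A_44_P480153 at chr4:154713276-154713335, all on the minus strand. Gfra1 lies on chromosome 1, with A_43_P11634 at chr1:264825371-264825430 on the minus strand. The Mycn probe lies at chr6:36512147-36512206 on the minus strand, and the Gdnf probe A_44_P365470 at chr2:57332123-57332182 on the plus strand. No gene models of rn3 were used here, so exon and UTR positions are not given. The Gdnf probe A_44_P365470 was 73.3% G or C with a longest run of 10, against 38.3% for the other Gdnf probe.

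Ret, the receptor, was among the probes with the largest rise between the labelled ages. Levels are log2 intensities normalized between arrays, and each series of 3 follows the arrays of +/+, Cy/+ and Cy/Cy. For the brightest Ret probe the reference stood at 6.43, 6.68 and 6.59 at 3 days and at 8.76, 8.88 and 8.81 at 7 days. The reference values of the ages did not overlap. The means were 6.57 ± 0.12 and 8.81 ± 0.06 (SD, n = 3 hybridisations), 4.75-fold apart. Of all kept probes 99.98% had a smaller change. In Cy5 the Cy/+ pool went from 7.26 to 9.53 and the Cy/Cy pool from 7.26 to 8.77. Both mutant pools were thus level at 3 days, and Cy/+ was the higher at 7 days. Because Ret and Gfra1 were chosen for this rise, the change with age is a description and was not tested for any of the 9 genes. The background correction adds an offset of 50, which shrinks the fold of dim probes. On the scanner software's processed signals the rise of Ret was 3.75 on the log2 scale in place of 2.25.

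The other Ret probes were near background. A_44_P153972 was not well above background in Cy3 at 3 days and was so on 2 of 3 arrays at 7 days, at means of 6.20 and 6.61. Its rise was at least 1.33-fold, the bound being set by the probe's own dim signal. A_44_P480153 was never well above background in Cy3 and stood at 6.09 and 6.37. The 4.75-fold change of Ret therefore rests on 1 probe of 3.

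Gfra1, the co-receptor that binds GDNF, changed in the same direction by both of its probes. The brightest stood at 10.5, 10.6 and 10.7 in the 3-day reference and at 12.2, 12.2 and 12.2 in the 7-day reference. The means were 10.59 ± 0.11 and 12.22 ± 0.04 (SD, n = 3), 3.09-fold apart. In Cy5, Cy/+ went from 10.6 to 12.1 and Cy/Cy from 11.2 to 12.1, so the mutant pools stood apart at 3 days and together at 7 days. The second probe went from 7.75 ± 0.22 to 8.87 ± 0.21 in the reference (SD, n = 3), a 2.17-fold change.

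Gdnf, the ligand, did not show a rise that both probes shared. The bright, G- and C-rich probe stood at 15.37, 15.07 and 15.02 in the 3-day reference and at 14.55, 14.76 and 14.74 in the 7-day reference, 1.39-fold lower at 7 days with no overlap. The highest 3-day and the lowest 7-day value came from the arrays labelled +/+, and without them the log2 change was -0.30 in place of -0.47. The second probe, spotted 10 times on each array, was never well above background in Cy3 and stood at 6.08 ± 0.01 and 6.34 ± 0.14 (SD, n = 3). In Cy5 it was well above background only in the Cy/+ and Cy/Cy pools of 7 days, at 6.59 and 6.40. In Cy3 the second probe was higher at 7 days without overlap, opposite to the first. Below the background limit it gave no measured level in the reference to set beside the first, and the direction of Gdnf rests on 1 probe. Over its 10 spots the SD of the log2 ratio was 0.05 to 0.11, against medians of 0.04 to 0.06 per array over the 263 probes with replicate spots.

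**Figure D1:**
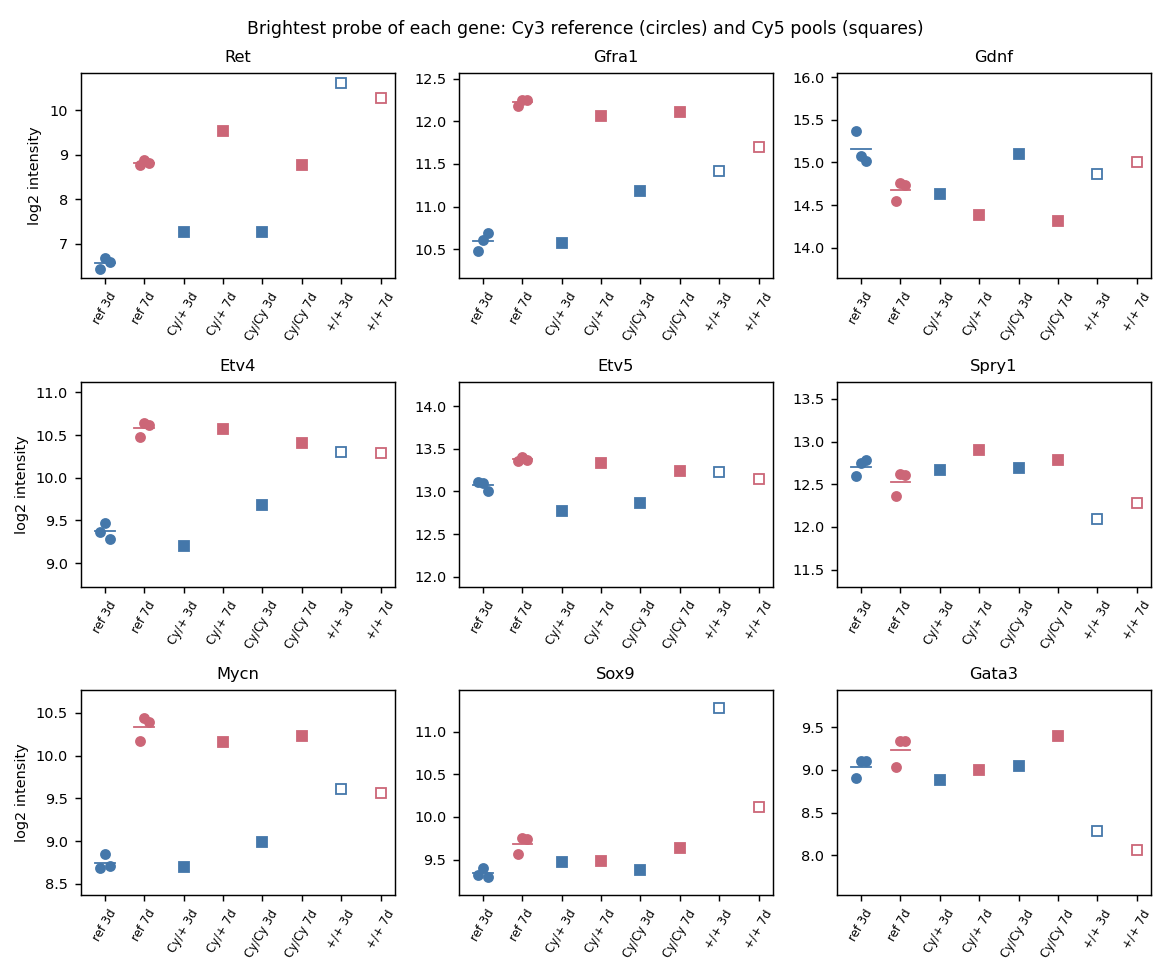
Log2 intensity of the brightest probe of each gene, normalized between arrays. Circles are the 3 hybridisations of the Cy3 +/+ reference per age with a line at their mean, filled squares Cy5 of Cy/+ and Cy/Cy, open squares Cy5 of the arrays labelled +/+, blue for 3 and red for 7 days. The reference of Ret lies at 6.43 to 6.68 at 3 days and at 8.76 to 8.88 at 7 days, and the open squares of Ret, at 10.6 and 10.3, lie above all others.

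Of the transcription factors that the signal is known to induce, Etv4 was higher at 7 days and Etv5 changed less. The brightest Etv4 probe stood at 9.37, 9.47 and 9.28 in the 3-day reference and at 10.5, 10.6 and 10.6 in the 7-day reference, 2.31-fold apart. Cy/+ went from 9.20 to 10.6 and Cy/Cy from 9.68 to 10.4. The second Etv4 probe was 1.90-fold higher in the reference. Etv5 went from 13.07 ± 0.06 to 13.37 ± 0.03 in the reference by its brightest probe and from 8.74 ± 0.17 to 9.23 ± 0.13 by the other (SD, n = 3), 1.24-fold and 1.41-fold. Neither probe's ages overlapped.

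Spry1, the feedback inhibitor, showed no separation of the ages. Its brightest probe stood at 12.6, 12.7 and 12.8 in the 3-day reference and at 12.4, 12.6 and 12.6 in the 7-day reference, and the values overlapped. The second probe had means of 9.19 ± 0.25 and 8.97 ± 0.19 (SD, n = 3) and overlapped as well.

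Mycn, a Myc family factor of nephrogenic cells, stood at 8.69, 8.85 and 8.70 in the 3-day reference and at 10.2, 10.4 and 10.4 in the 7-day reference, 3.00-fold apart. Cy/+ went from 8.70 to 10.2 and Cy/Cy from 8.99 to 10.2. The second probe rose 1.77-fold. Sox9 went from 9.34 ± 0.06 to 9.68 ± 0.10 by its brightest probe and from 9.25 ± 0.12 to 9.63 ± 0.03 by the next (SD, n = 3), without overlap, while its 2 dim probes had overlapping ages. Gata3 stood at 8.90, 9.11 and 9.10 in the 3-day reference and at 9.03, 9.34 and 9.33 in the 7-day reference, which overlapped.

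Counted by brightest probe, 4 of the 9 genes, Ret, Gfra1, Mycn and Etv4, were at least 2-fold higher at 7 days in the reference without overlap. Among all kept probes 95 of 30896 were, or 0.307%. Ret and Gfra1 were chosen in part for this rise, so their place in the count of 4 was set in advance. The share counts every kept probe, dim ones included, while each gene is counted by its brightest probe. The count of 4 was the same without Cy3 of the arrays labelled +/+, with log2 changes of 2.21 for Ret, 1.60 for Gfra1, 1.64 for Mycn and 1.26 for Etv4. None of the 9 was 2-fold lower, as 0.22% of kept probes were. Without a size limit 6 were higher and 1 lower without overlap, against 19.3% and 16.7% of kept probes. The median change of the 9 genes was 0.35 on the log2 scale, and that of all kept probes 0.01. In Cy5 the same 4 genes were at least 2-fold higher in Cy/+, where 0.317% of kept probes were, and Ret and Mycn were in Cy/Cy, where 0.265% were. Cy5 of Cy/Cy rose less than Cy/+ for each of these 4 genes, by 1.52 against 2.27 for Ret, 0.92 against 1.48 for Gfra1, 1.24 against 1.46 for Mycn and 0.73 against 1.37 for Etv4 on the log2 scale. That difference rests on 1 pool per genotype and age and was not tested. Without any normalization between arrays, where the median of all kept probes fell by 0.46, Ret alone of the 9 passed 2-fold in the reference.

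**Figure D2:**
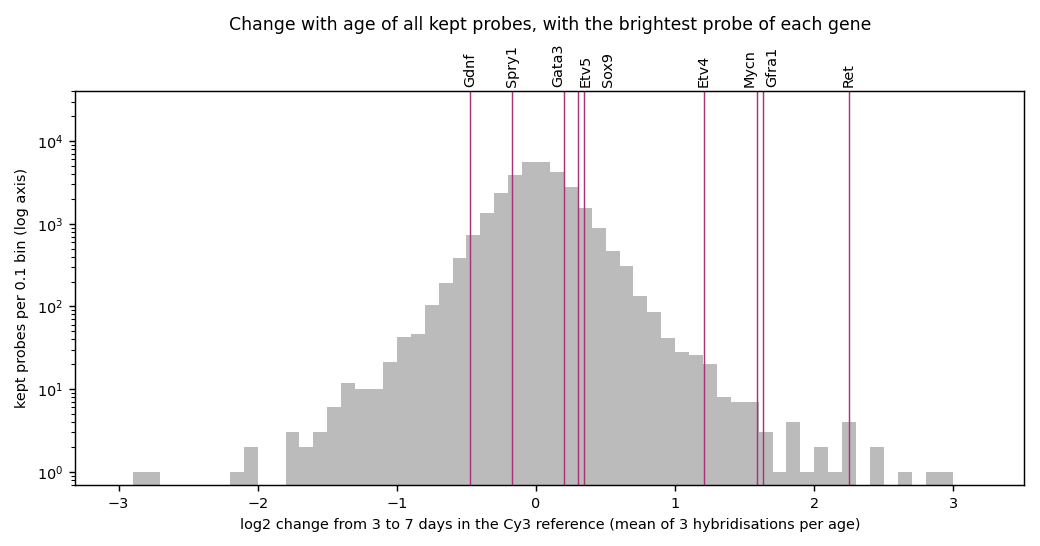
Number of kept probes, on a log axis, by the log2 change of the Cy3 +/+ reference from 3 to 7 days in bins 0.1 wide, from means of 3 hybridisations per age. Lines mark the brightest probe of each of the 9 genes, with Ret at 2.25, Gfra1 at 1.63, Mycn at 1.59 and Etv4 at 1.21, and Gdnf at -0.47 on the other side.

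**Figure D3:**
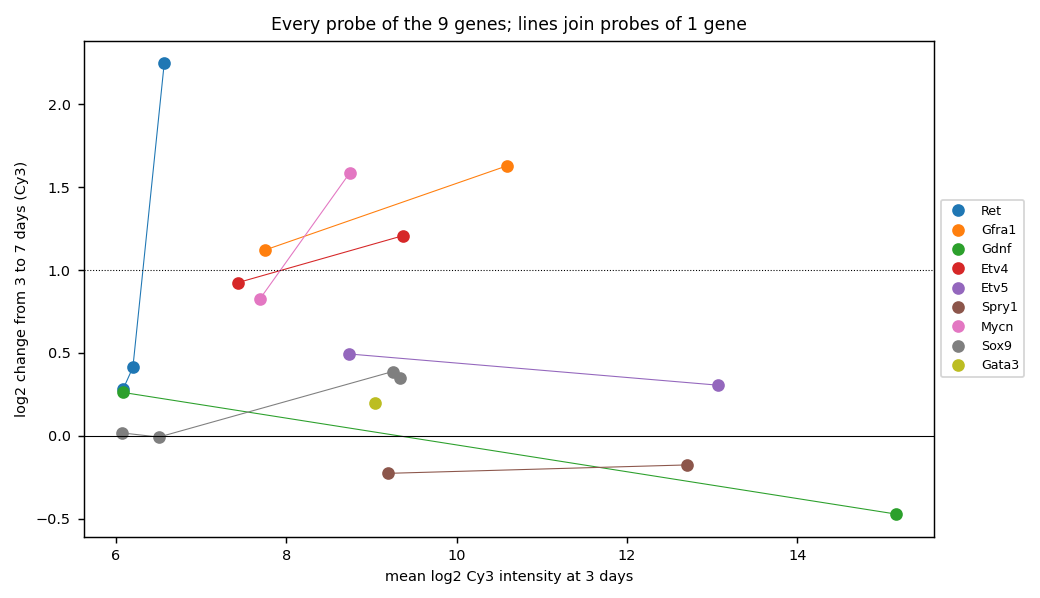
Log2 change of the Cy3 reference from 3 to 7 days against its mean log2 level at 3 days for all 20 probes, with lines joining probes of the same gene and a dotted line at 2-fold. The probes of Gfra1, Mycn and Etv4 lie above 0.8, while the dim probes of Ret lie at 0.28 and 0.41 and the Gdnf probes on either side of 0.

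Other genes of the pathway were read from 6 lists by brightest probe, with no test for this contrast. Of all kept probes 19.3% were higher and 16.7% lower without overlap, the shares to set beside each count here and in the next paragraph. Of 6 other ligands and co-receptors of the family, 1 was higher and 1 lower without overlap. Gfra3, the artemin co-receptor, changed by -0.44 and the ligand Nrtn by 0.14, while the ages overlapped for Gfra4, which was not well above background at 7 days, at 6.48, 6.64 and 6.79 against 6.25, 6.39 and 6.505. Of 16 adaptors and relay kinases, 7 were higher and 1 lower without overlap, and the median change was 0.17. Ptpn11, the phosphatase SHP2, stood at 11.2, 11.3 and 11.4 in the 3-day reference and at 12.5 on all 3 arrays of 7 days, a change of 1.18. Src followed at 0.39. Of 5 other feedback inhibitors 1 was higher, Dusp6 at 0.40, and Spry2, at 0.26, overlapped.

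Of 4 other bud transcription factors, 2 were higher without overlap. Lhx1, which acts in the nephric duct and in early nephrons, changed by 1.11, and Pax2 by 0.59 with overlap. Foxa1 lay below the background limit in Cy3. Of 8 tip and trunk genes 3 were higher and 2 lower, with a median of -0.07. Wnt11, a known tip target of Ret signalling, stood at 13.7, 13.5 and 13.3 at 3 days and at 12.9 on all 3 arrays of 7 days, a change of -0.61. It thus went the other way from Ret. Upk3a, a urothelial plaque protein, changed by 0.55. Of 15 regulators of Gdnf and of outgrowth, 7 were higher and 2 lower, with Agtr2 at 0.81, the BMP antagonist Grem1 at -0.41, and Fgf7 below the background limit in Cy3.

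Markers of other cells were read beside this change, where again 19.3% of all kept probes were higher and 16.7% lower without overlap. Of 8 nerve and Schwann cell markers, 2 were higher without overlap, Elavl4 by 1.47 and Uchl1 by 0.69, and the median was 0.02. The list's summed level was log2 10.9 to 11.4 in the 3-day reference and 11.7 to 11.9 in the 7-day reference. Chrna3 was not well above background in the reference on any array, and Phox2a, S100b and Stmn2 were on 2 of 6. Of 5 cap mesenchyme markers, which lie around the tips, 3 were higher without overlap, with a median of 0.13. Of 7 collecting duct markers, 1 was higher and 1 lower, with a median of 0.06. Of 8 tubule and podocyte markers, 1 was higher and 4 lower, with a median of -0.32. All 10 genes of a proliferation list added after the data were seen were higher without overlap, with a median of 0.62 and Birc5 at 1.4. The part of these cells in the change of the Ret genes was not tested.

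**Figure D4:**
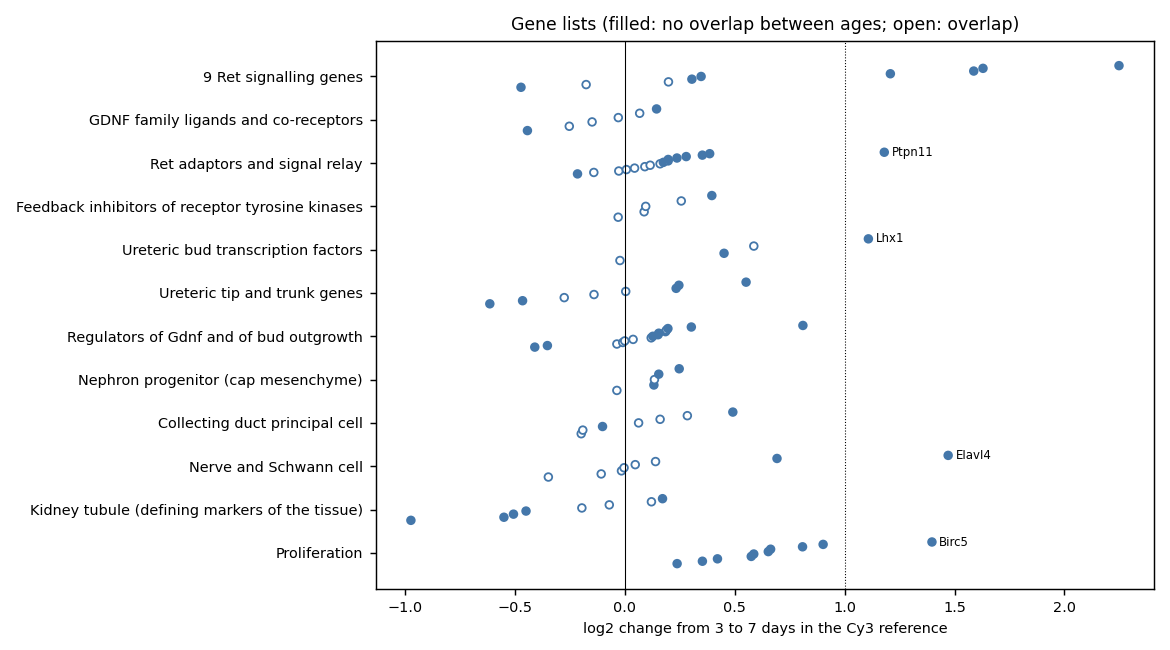
Log2 change of the Cy3 reference from 3 to 7 days for each gene's brightest probe, by list, filled where the 3 hybridisations of each age did not overlap and open where they did, with a dotted line at 2-fold. Beyond the 9 genes in the top line, Ptpn11 at 1.18, Lhx1 at 1.11, Elavl4 at 1.47 and Birc5 at 1.4 pass it, and all 10 proliferation genes lie above 0.

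The genes most like Ret over 10 values, the 6 reference and 4 mutant Cy5 levels each centred on their mean, were found by root mean square distance among 26206 gene names or probe IDs. In order they were the brain EST AW913892 (0.229), the adenylate cyclase Adcy8 (0.250), the nerve growth factor receptor Ngfr (0.369), RGD1307059 (0.403) and the opioid precursor Pdyn (0.407). Nearest to Gfra1 were the unnamed probe A_44_P745749 (0.0946), the cadherin 4-like LOC311710 (0.108), Mycn (0.123), the unnamed TC545130 (0.159) and the histone H1.5-like LOC680522 (0.163). Mycn, another of the 9 genes, was nearer to Gfra1 than all but 2 of the genes compared. The distance includes the change with age for which Ret and Gfra1 were chosen, by 1.63 for Gfra1 and 1.59 for Mycn in the reference. Nearness is thus a description and no test of a link between the genes. These 10 values come from shared slides and arrays.

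The promoters of Ret and Gfra1, which rose together, are given from RefSeq in build GRCr8 as the 250 bases before the start of transcription. Of the 9 genes 6 had an entry (not Etv4, Mycn and Sox9). Capitals mark any match, on either strand, to the motifs named below them.
Ret chr4:153040557-153040806, minus strand: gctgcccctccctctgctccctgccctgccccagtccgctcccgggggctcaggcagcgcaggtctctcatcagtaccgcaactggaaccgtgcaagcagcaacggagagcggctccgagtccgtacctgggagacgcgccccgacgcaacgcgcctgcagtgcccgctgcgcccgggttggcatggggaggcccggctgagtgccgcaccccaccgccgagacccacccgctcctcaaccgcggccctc
Gfra1 chr1:267555812-267556061, minus strand: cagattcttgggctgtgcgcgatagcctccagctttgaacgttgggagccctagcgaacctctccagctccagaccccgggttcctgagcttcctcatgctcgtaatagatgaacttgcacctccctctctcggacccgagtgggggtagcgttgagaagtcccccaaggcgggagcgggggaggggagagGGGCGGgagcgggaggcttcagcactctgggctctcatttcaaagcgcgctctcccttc
AGATAA, read by GATA factors, was in none of the 6 promoters and in 10.3% of 33469 rat promoters of this length. CCGGAA, a core of ETS sites, was in that of Gata3 alone and in 12.6% of all. The GC box GGGCGG was found once each for Gfra1, Spry1 and Gata3 and at 3 places for Etv5, against 30.5% of all promoters with at least 1. These windows are 72.8% G or C for Ret and 62% for Gfra1.

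Mutant kidneys were next compared with their own +/+ reference, the question being how these genes stood in kidneys that carry Cy. No probe of the 9 genes passed an adjusted p of 0.05 (limma, Benjamini-Hochberg over all kept probes) in Cy/+ or in Cy/Cy. In Cy/+ 7.86% of kept probes passed, 4.58% higher and 3.27% lower. In Cy/Cy 0% passed, with 2674 probes at an unadjusted p under 0.05, of which 1 was a probe of the 9 genes. In Cy/+ 3 of the 19 probes were under that unadjusted limit, against 8915 of all 30896 kept probes, so the 9 genes did not stand out. The count of calls in Cy/+ was 2427, and 797 without the 3-day Cy/+ array.

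By its brightest probe alone Ret was, of the 9 genes, the farthest from its reference in Cy/+. The log2 ratio of the brightest probe was 0.58 at 3 days and 0.66 at 7 days, a mean of 0.62 ± 0.16 (SE, n = 2 arrays; adjusted p = 0.0595, limma). It was higher on both Cy/+ arrays and did not pass. With age as a block the adjusted p was 0.0265 (limma), the value unchanged. The value was 1.07 on the software's ratios and 2.35 with scaling between arrays, with adjusted p of 0.274 and 0.358 (limma). In Cy/Cy it was 0.67 at 3 days and -0.04 at 7 days, a mean of 0.31 ± 0.16 (SE, n = 2; adjusted p = 0.618, limma). The Cy/Cy pools thus did not move alike. Each SE here and below comes from the limma fit, pooled over its genotypes and drawn toward that of all probes. It is therefore the same for both mutants and does not show the spread of the 2 arrays of 1 genotype. In the authors' deposited table the log10 ratio of this probe was 0.415 and 0.491 in Cy/+ and Cy/Cy at 3 days and 0.229 and -0.0168 at 7 days. The probe A_44_P153972 was at 0.03 in Cy/+ and at -0.19 ± 0.07 in Cy/Cy (SE, n = 2; adjusted p = 0.545, limma). A_44_P480153 was at 0.01 in Cy/+ and at -0.004 in Cy/Cy, and both of these probes were near background.

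For Gfra1 the ratio was -0.03 and -0.18 in Cy/+ at 3 and 7 days and 0.49 and -0.14 in Cy/Cy. Its fitted values were -0.10 ± 0.14 and 0.17 ± 0.14 (SE, n = 2), the first smaller and the second larger than its SE, and neither passed. Mycn was at -0.15 and -0.28 in Cy/+ and at 0.29 and -0.16 in Cy/Cy. Etv4 was at -0.27 and -0.08 in Cy/+ and at 0.40 and -0.21 in Cy/Cy. In Cy/Cy the ratios of Ret, Gfra1, Mycn and Etv4 were all above 0 at 3 days and below 0 at 7 days. The brightest probes of Gdnf (0.09 and -0.42) and Sox9 (0.08 and -0.10) had the same signs. The pattern was thus not particular to Ret, Gfra1, Mycn and Etv4. Ret had it by its brightest probe only, with A_44_P153972 at -0.15 and -0.23 and A_44_P480153 at -0.07 and 0.06. The pattern rests on 1 array per age, was not tested and was not counted over all kept probes.

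Gdnf was lower in Cy/+ by its bright probe, at -0.44 and -0.38, a mean of -0.41 ± 0.12 (SE, n = 2; adjusted p = 0.0865, limma), which did not pass. With age as a block its adjusted p was 0.0466 (limma), and centring each array on its median in place of loess turned the value to 0.37, while scaling between arrays gave -1.71. In Cy/Cy it was at 0.09 and -0.42. Gata3 was at -0.22 and -0.34 in Cy/+, a mean of -0.28 ± 0.08 (SE, n = 2; adjusted p = 0.0753, limma), and at -0.06 and 0.07 in Cy/Cy. Median centring turned the Gata3 value to 0.04 and scaling gave -0.93. Etv5, Spry1 and Sox9 had fitted values between -0.24 and 0.18 in Cy/+ and between -0.13 and 0.05 in Cy/Cy over their kept probes.

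Cy/Cy and Cy/+ did not differ detectably in any of the 19 probes. Among all kept probes 0% passed, with 1888 at an unadjusted p under 0.05. Gata3 was the one probe of these under that limit, at 0.28 ± 0.11 (SE, n = 2 arrays per genotype; adjusted p = 0.811, limma). Ret differed by -0.30 ± 0.22 and Gfra1 by 0.28 ± 0.20 (SE, n = 2 per genotype), with adjusted p of 0.872 each (limma). Without the 7-day Cy/+ array 211 probes passed.

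**Figure D5:**
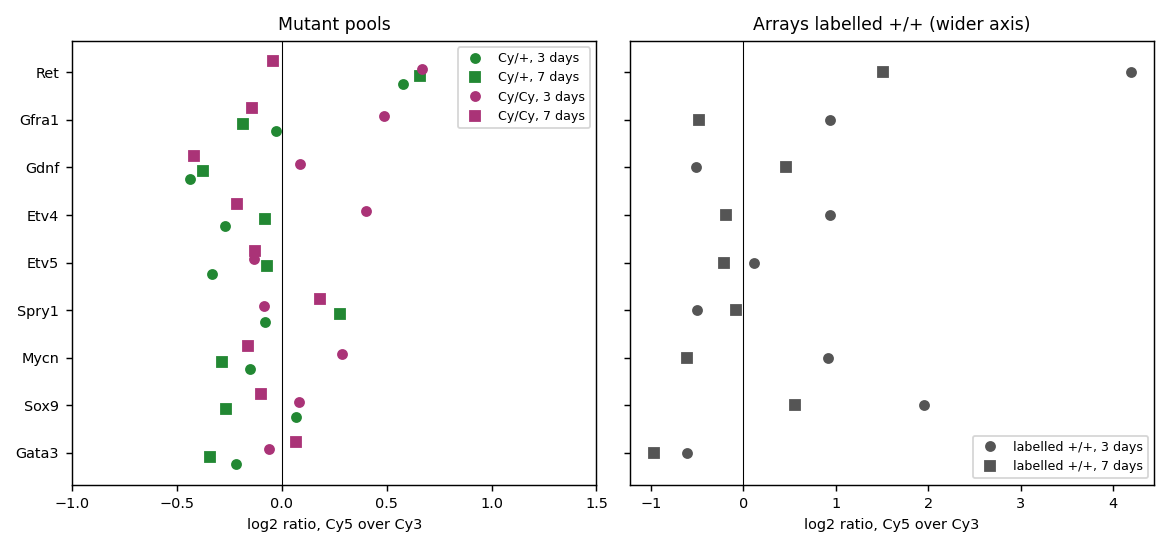
Log2 ratio of Cy5 over Cy3 for the brightest probe of each gene on each array, mutant arrays at left and the arrays labelled +/+ at right on a wider axis, circles for 3 and squares for 7 days. Ret lies at 0.58 to 0.67 on 3 of the 4 mutant arrays and at -0.04 on the 7-day Cy/Cy array, and at 4.19 and 1.51 on the arrays labelled +/+.

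Among the regulators of Gdnf and of outgrowth, 2 of 15 genes passed in Cy/+ against its reference, both lower. Of all kept probes 4.58% passed as higher and 3.27% as lower, the shares to set beside each count here. Gdf11, a TGF-beta family ligand that Gdnf expression depends on, was lower, at -0.68 ± 0.08 (SE, n = 2; adjusted p = 0.0116, limma). Slit2, which with Robo2 limits where Gdnf is expressed, was lower, at -0.51 ± 0.11 (SE, n = 2; adjusted p = 0.0412, limma). In Cy/Cy they stood at -0.23 and -0.12 and neither passed. Each has 2 probes on the array and is given by its brightest. On the software's ratios, and with scaling between arrays, 0 probes of any gene passed in Cy/+. Of the 8 tubule and podocyte markers 2 were higher and 3 lower in Cy/+, of 6 intercalated cell markers 3 were lower, and none of 7 collecting duct markers passed. Of 5 cap mesenchyme markers 1 was higher, Cited1 at 0.49, and 1 of 8 tip and trunk genes. Of the 10 proliferation genes 4 were higher, Ccnb1, Pcna, Mcm2 and Aurkb, with a list median of 0.36. Their part in the values of the 9 genes was not tested.

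The planned subtraction of the arrays labelled +/+ gave other values, and they rest on the arrays that went against their label. Ret was at 4.19 and 1.51 on those arrays at 3 and 7 days, and its Cy5 level there was 10.6 and 10.3. At 3 days 14.1% of kept probes were at least 2-fold above 0 on that array and 4.48% at least 2-fold below, and at 7 days 10.9% and 3.76%. Sox9 was at 1.96 and 0.56 by its brightest probe and at 1.69 and 1.42 by the next. Gata3 was at -0.61 and -0.97. In Cy/+ 4 of the 19 probes passed, 1 higher and 3 lower, against 29.6% of all kept probes (11% higher, 18.6% lower). In Cy/Cy 6 passed, 2 higher and 4 lower, against 28.9% (10.6% higher, 18.4% lower). Those shares are close to the background, and no probe of Gdnf, Gfra1, Etv4, Etv5 or Mycn passed.

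After the subtraction Ret was lower, at -2.23 ± 0.63 in Cy/+ and at -2.53 ± 0.63 in Cy/Cy (SE, n = 2 arrays per genotype), with adjusted p of 0.0494 and 0.0343 (limma). With the ratios scaled between arrays the Cy/+ value turned to 1.43. Without the 3-day array labelled +/+ the values were -1.05 and -1.35, and without the 7-day one -3.41 and -3.71. The 2 bright Sox9 probes were lower, at -1.36 ± 0.31 and -1.67 ± 0.12 in Cy/+ (SE, n = 2; adjusted p = 0.0265 and 0.000602, limma). The first of these, A_44_P221245, was at -0.79 without the 3-day array labelled +/+. Spry1 A_44_P255495 was higher by 0.75 ± 0.12 in Cy/+ and 0.54 ± 0.12 in Cy/Cy (SE, n = 2; adjusted p = 0.00939 and 0.0266, limma). Gata3 was higher by 0.79 ± 0.15 in Cy/Cy (SE, n = 2; adjusted p = 0.0159, limma). Scaled between arrays none of the 9 genes passed in either mutant by its brightest probe, and leaving out either array of the mutant also left 0.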

How the data were processed

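Total kidney RNA of 6 pools in Cy5 and of the +/+ reference in Cy3 was measured on 2-colour arrays. Per the file headers (Agilent Feature Extraction 9.5.1.1, coordinates of rn3), mean spot and local background intensity were deposited unnormalized, and processed intensity after dye normalization. Per the same file headers each spot has a deposited log10 ratio of Cy5 over Cy3 and a deposited p-value of the software's error model. The series text names another product and software version. The authors' series table held the same ratios (largest difference 0).

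In R 4.3.3 with limma 3.58.1, signals were corrected with normexp (offset 50) and loess, and spots of a probe averaged. A probe was kept if usable on all arrays and, on 2 or more, clear of background by the software's flag in Cy3 or Cy5. Levels are log2 channel values after Aquantile. The fits (lmFit, eBayes) took log2 ratios, for the 4 mutant arrays by genotype and for 6 arrays by genotype and age (2 residual degrees of freedom each), with Benjamini-Hochberg adjustment over all kept probes at 0.05. The brightest probe stands for a gene in counts. All probes of the 9 genes are given, and other pathway genes are named when they were not above background or had the 2 largest changes of their list. Of the other pathway genes that passed in a fit, only some are named. Some genes of the lists are not reported here. Genes and lists were chosen with earlier results of these data known. The fit was tested on simulated data. Probe sequences come from the array annotation and promoters from RefSeq.

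P-values measure the spread between arrays only. The SEs are those of the limma fit, pooled over genotypes, and n gives the arrays per genotype. The arrays of a genotype differ in age, and their numbers only name the ages, so no pairing of animals is known. Alternatives were the software's ratios, median centring, scaling, filters, the age block and leaving out each array.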

Additional observations from a re-analysis of the deposited data

Results flagged for a closer look

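For 6 probes of the Ret genes the ratios of the mutant pools to their references ran opposite ways. How many of all kept probes did so was not counted, so these 6 are no result about the Ret genes. The Ret probe A_44_P153972 was above 0 on both Cy/+ arrays and below 0 on both Cy/Cy arrays, and the means differed by -0.22 on the log2 scale (adjusted p = 0.821, limma), near background. The other 5 were on opposite sides of 0 at the labelled ages in both mutants, and the difference between ages was not tested. At 3 minus 7 days the mean log2 ratio of both mutants differed by -0.19 for Ret A_44_P480153, which was never well above background in the reference, and by 0.26 for Gfra1 A_44_P107308. It differed by -0.31 for Spry1 A_44_P473928 and by -0.30 for Spry1 A_44_P255495, so that both Spry1 probes were above 0 at 7 days. It differed by 0.26 for Sox9 A_44_P221245. With groups of 2 or 3 arrays, no array was tested as an outlier.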

How the results depend on the processing

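With median centring in place of loess, calls against the own reference went from 2427 to 15404 in Cy/+ (5 of the 9 genes in place of 0) and from 0 to 13280 in Cy/Cy (7 genes), and between the mutants from 0 to 9. It turned Gdnf to 0.37 and Gata3 to 0.035 in Cy/+. In Cy/+ minus the arrays labelled +/+ it gave 4 genes in place of 2, with 9985 probes called in place of 9157. The software's log ratios gave 0 calls in Cy/+ against its reference. After subtracting the arrays labelled +/+ they gave 1 gene each in place of 2 and 3, with 11354 and 11468 probes called. Scaling between arrays gave 0 calls in Cy/+ against its reference and 0 calls and 0 genes in both subtractions, where 9157 and 8942 probes had passed. It turned Ret to 1.43, Spry1 A_44_P473928 to -0.042 and Gata3 to -0.64 in Cy/+ minus those arrays.

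Without a filter 2 probes passed in Cy/Cy, and 9024 probes and 1 gene in Cy/+ minus the arrays labelled +/+. With the strict filter 2 probes passed in Cy/Cy, and 2783 probes and 1 gene, Ret, in Cy/+. With age as a replicate block 4853 probes and 2 genes, Ret and Gdnf, passed in Cy/+ and 15 probes and 0 genes in Cy/Cy. Without that block 0 and 1 genes passed in the subtractions for Cy/+ and Cy/Cy, with 8468 and 8309 probes called.

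Leaving out 1 array gave 797 to 3183 calls in Cy/+, 0 to 3 in Cy/Cy and 0 to 211 between the mutants. For the subtractions it gave 3666 to 11679 calls and 0 to 6 genes in Cy/+, and 3166 to 11511 calls and 0 to 5 genes in Cy/Cy. The lone remaining array was assumed to vary like the others.

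With no normalization between arrays 1 gene in place of 4 was at least 2-fold higher at 7 days in the reference, 1 in place of 4 in Cy/+ and 1 in place of 2 in Cy/Cy, with medians over all probes of -0.46, -0.41 and -0.34. Signs turned for Etv5 (-0.38, -0.067 and -0.17), Sox9 (-0.29, -0.53 and -0.20) and Gata3 (-0.40, -0.41 and -0.086) in the reference, Cy/+ and Cy/Cy, and for Spry1 in Cy/+ (-0.39) and Cy/Cy (-0.43). After subtracting those medians, chosen after seeing the data, Sox9 in Cy/+ (-0.12) and Spry1 in Cy/Cy (-0.10) stayed turned. Ret, Gfra1, Mycn and Etv4 were higher at 7 days under each of these settings. Dim probes limit what can be said of Gdnf and of 2 of the 3 Ret probes.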

Other observations

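Lens genes, a list added after the data were seen, were also measured on the kidney arrays. Of 16 kept genes, 7 were higher in the reference without overlap, 6 of them at least 2-fold, and 1 was lower, with a median of 1.67. Of all kept probes 19.3% were higher without overlap, 0.307% at least 2-fold, and 16.7% were lower. The summed lens level in Cy3 went from log2 15.09 to 15.99 on the arrays labelled +/+ but from 15.1 and 15.3 to 14.8 and 14.8 on the mutant arrays. Their levels were highest on the 7-day array labelled +/+, where Cryba1, a lens crystallin, stood at log2 17.6 in Cy5 and 11.1 in Cy3. In Cy3 of the mutant arrays Cryba1 went from 6.59 and 6.74 at 3 days to 7.95 and 8.02 at 7 days, while in Cy5 the Cy/+ and Cy/Cy pools stood at 6.43 and 6.72 at 7 days. Crygn went from 6.86 and 6.95 to 8.41 and 8.45 in the same reference, and stood at 8.37 and 8.55 in the mutant pools of 7 days.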
